A study of Mus musculus with 18 samples.

Results

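The Krüppel-like factors described here are 10 genes, Klf2, Klf3, Klf4, Klf5, Klf6, Klf7, Klf9, Klf10, Klf13 and Klf15, out of 18194 genes that had a probe set with a single symbol on the array. They were taken by name: every probe set whose only gene symbol in the array annotation was one of these 10 was included, which gave 34 probe sets out of 45101. Each gene is represented by its brightest probe set by the mean over the 18 arrays, and the other probe sets are reported beside it. All 10 genes passed the filter on dim signals and were among the 13679 genes tested.

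Krüppel-like factors are transcription factors that bind GC-rich and CACCC sequences in promoters through zinc fingers near the carboxyl end, much as the related Sp proteins do. The family falls into groups by what the rest of the protein binds. Klf3 belongs to the group that recruits the corepressor CtBP. Klf2, Klf4, Klf5, Klf6 and Klf7 act mainly as activators through histone acetyltransferases, although several of them also repress. Klf9, Klf10 and Klf13 carry a short helix that binds the corepressor Sin3A, and Klf10 was first described as a TGF-β-inducible early gene. In fibroblasts members of the family are known as early response genes and as regulators of growth, matrix production and adipogenesis.

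The cells were primary mouse embryonic fibroblasts grown from embryos 14 days old after the head and liver had been taken away, so each culture held the dissociated rest of 1 embryo. The 3 wild-type embryos and the 3 embryos labelled knock-out for Nfic (which encodes the transcription factor NFI-C) each gave an untreated culture, one that received 12.5 ng/ml of TGF-β1 for 1 h and one that received it for 10 h. This made 6 groups of 3 Affymetrix arrays. All cultures, the untreated ones too, had first stood for some hours in medium supplemented with the albumin product AlbuMAX II and with a mix of insulin, transferrin and selenium. No untreated culture of 10 h was analysed here, so each 10 h difference is that of TGF-β1 and time in culture together, and their shares cannot be told apart. In cell populations such as these, fewer cells of a type and less RNA per cell cannot be told apart either.

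Array medians lay between 4.74 and 4.81 on the log2 scale, and arrays of a group correlated at 0.9872 to 0.995. Nfic was not called lower on the labelled knock-out arrays. Its brightest of 5 probe sets differed from wild type by -0.10 ± 0.16 without TGF-β1, -0.02 ± 0.16 after 1 h of it and -0.09 ± 0.16 after 10 h (log2 difference ± SE, adjusted p 1, 0.997 and 0.973 in limma), so the genotype is given below as the label states it. No source used here says whether the probes lie in the deleted part of Nfic. Of 13 fibroblast markers 12 were on the array and passed the filter, and their mean ran from 11.21 to 11.69 on the untreated and 1 h arrays and from 10.67 to 10.99 at 10 h. All 11 macrophage markers passed too, Csf1r with a range of 9.58 to 12.27 and Lyz2 of 11.26 to 13.68, and their mean was highest in embryo 1 of either genotype, where the untreated cultures had 10.25 in wild type and 9.65 in the labelled knock-out. The other embryos had 7.91 to 8.77. The means of the endothelial, epithelial, skeletal muscle and erythroid marker lists stayed between 4.23 and 4.73, near the filter level of 4.163 to 4.252. Of those on the array 6 of 11 endothelial, 6 of 10 epithelial, 4 of 8 muscle and 3 of 5 erythroid markers passed the filter. Single ones were well above it, with ranges of 6.28 to 7.15 for Egfl7, 5.89 to 6.46 for Epcam, 6.11 to 7.03 for Des and 5.21 to 5.94 for Epor. The 5 of 7 adipocyte markers on the array had a mean of 5.48 to 6.52 untreated and at 1 h and of 4.87 to 5.45 at 10 h.

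Of the 10 members 8 had a window in the RefSeq promoter table (build GRCm38.p6), and those 8 held 59.2% to 78.4% G and C in the 250 bases before the start of the gene, above the median of 52.4% over 32851 windows of the same length. The GC box GGGCGG, the core letters bound by Sp and Krüppel-like factors, was found on either strand in 7 of the 8 windows and in 32.7% of all windows. The letters CACCC, read on both strands, were in 6 of the 8 and in 52% of all. The windows of Klf3, Klf9 and Klf13 are printed because these genes changed in both genotypes at 10 h, Klf3 downward, Klf9 and Klf13 upward. Klf5 and Klf10 also changed in both genotypes at 10 h but are the members without a window. Matches of GGGCGG and CACCC on either strand are in capitals. A match is a description of the letters and shows no binding.
Klf3, chr5:64803271-64803520, plus strand: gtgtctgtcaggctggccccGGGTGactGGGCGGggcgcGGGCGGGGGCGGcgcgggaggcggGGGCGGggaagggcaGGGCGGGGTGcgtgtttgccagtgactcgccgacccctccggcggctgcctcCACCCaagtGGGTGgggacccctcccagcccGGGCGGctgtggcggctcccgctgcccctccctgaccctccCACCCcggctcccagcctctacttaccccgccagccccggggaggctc
Klf9, chr19:23140976-23141225, plus strand: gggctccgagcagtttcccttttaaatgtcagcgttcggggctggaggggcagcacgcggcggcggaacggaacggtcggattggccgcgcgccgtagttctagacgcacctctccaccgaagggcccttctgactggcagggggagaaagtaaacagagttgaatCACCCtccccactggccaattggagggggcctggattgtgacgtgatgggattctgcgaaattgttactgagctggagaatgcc
Klf13, chr7:63938916-63939165, minus strand: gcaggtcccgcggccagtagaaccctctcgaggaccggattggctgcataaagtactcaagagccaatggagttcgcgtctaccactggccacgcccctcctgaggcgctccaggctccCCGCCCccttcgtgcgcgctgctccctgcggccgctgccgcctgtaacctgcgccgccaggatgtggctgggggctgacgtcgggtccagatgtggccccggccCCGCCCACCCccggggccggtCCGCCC

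The Klf3 window held 6 matches of GGGCGG and 5 of CACCC, 1 of them overlapping a match of the other kind, and was the richest of the 8 in G and C at 78.4%. That of Klf9 held no GGGCGG and 1 CACCC, and its G and C content was 59.6%. The window of Klf13 held 3 GGGCGG and 1 CACCC, again with 1 overlap, at 71.6% G and C. Of the other letters searched on both strands, CAGAC, which contains the core of the SMAD element, was found in 2 of the 8 windows and in 42.2% of all, GTCTAG, part of the palindromic SMAD element, in 1 and in 7.11%, and the E-box CACGTG in 3 and in 6.02%. TGACG, the core of the cyclic AMP element, was in 5 and in 17.8% of all, and AGAACA, part of the glucocorticoid element, was in none of the 8 and in 16.1%. No match says only that these letters are absent from this window.

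After 1 h of TGF-β1 Klf10 rose in both genotypes, and Klf13 rose in the labelled knock-out. A gene is called where its adjusted p in limma is under 0.05 after Benjamini-Hochberg adjustment over the 13679 genes, and every difference is given with its standard error for 3 arrays against 3. In wild type 1 of the 10 members was called higher and none lower, against 0.585% of all genes called in either direction, 0.504% higher and 0.0804% lower. The labelled knock-out had 2 members called higher and none lower, against 0.49% of all genes, 0.417% higher and 0.0731% lower. At 10 h, 3 members (Klf9, Klf10 and Klf13) were higher and 2 (Klf3 and Klf5) lower in wild type, where 33.7% of all genes were called, 14.9% higher and 18.8% lower. In the labelled knock-out 4 were higher, with Klf6 as the addition, and the same 2 were lower, where 34.7% of all genes were called, 13.9% higher and 20.7% lower. At an unadjusted p under 0.05 there were 5 and 4 members at 1 h and 7 and 6 at 10 h, in wild type and the labelled knock-out. Of all 13679 genes 940 and 512 were under it at 1 h and 6052 and 5902 at 10 h. Treated and untreated arrays did not overlap for 5 members in wild type and 5 in the labelled knock-out at 1 h, where this held for 15.5% and 8.42% of all genes. At 10 h it held for 5 and 7 members and for 44.3% and 45.1% of all genes, so that at this time the wild-type share of the members lies near the background. The median difference of the members was 0.18 and 0.05 at 1 h and 0.26 and 0.19 at 10 h, beside medians over all genes between -0.03 and 0.01.

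**Figure D1:**
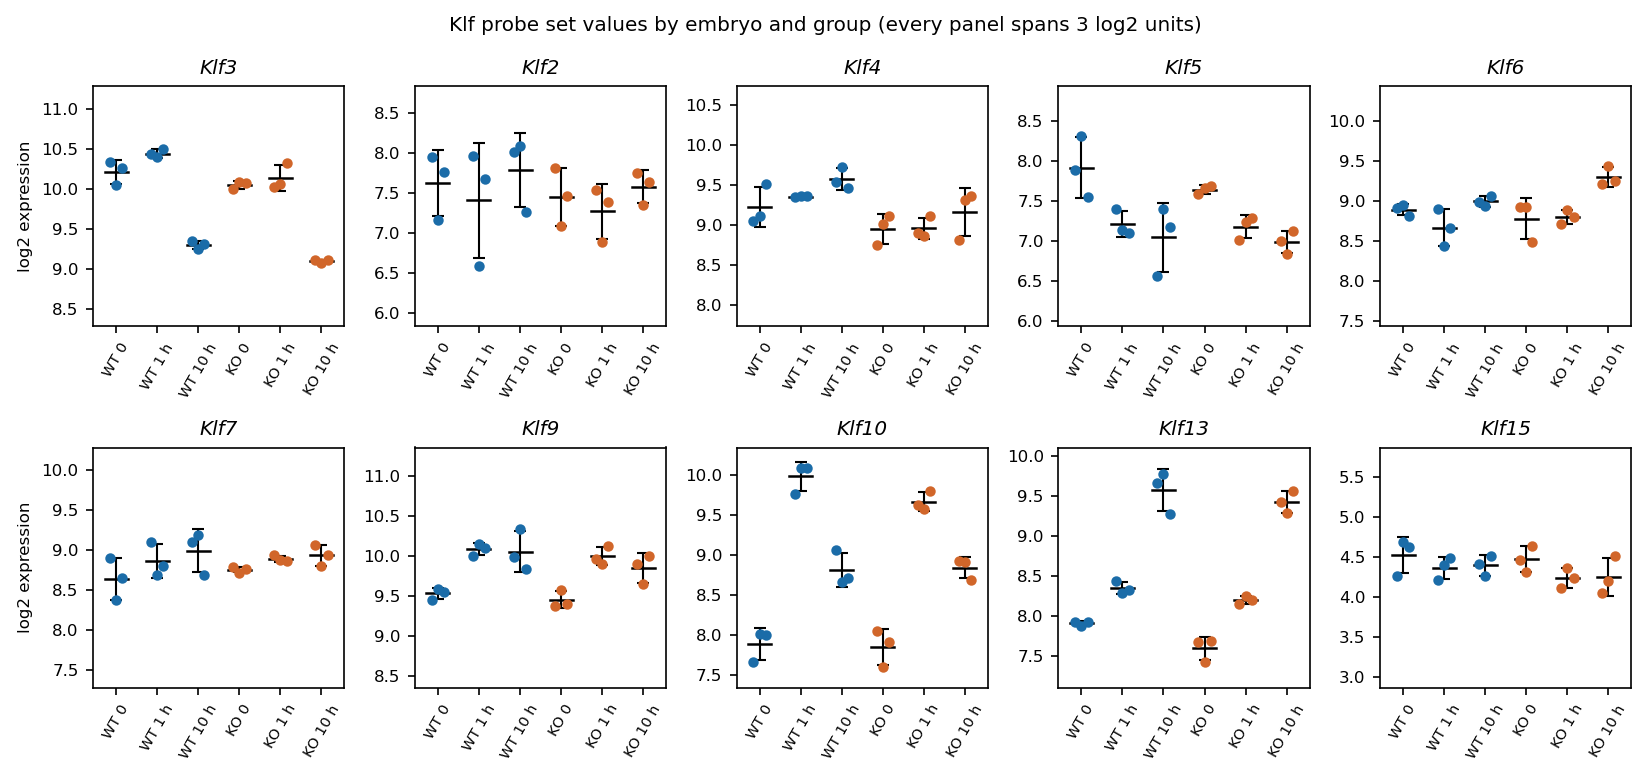
Log2 expression of the brightest probe set of each of the 10 Krüppel-like factor genes in 6 groups (WT, wild type; KO, labelled knock-out; 0, untreated), with 1 point per array, embryos 1 to 3 from left to right in each group, and bars for mean ± SD (n = 3); each panel spans the same range of the log2 axis but starts at a different level. Klf10 peaks at 1 h, Klf13 climbs to 10 h and Klf3 drops at 10 h in both genotypes while the 3 wild-type Klf2 points at 1 h reach from 6.59 to 7.96.

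Klf10, the TGF-β-inducible early gene, had the largest 1 h difference of the 10 members in both genotypes. Its only probe set, 1416029_at, read 7.66, 8.02 and 8.0 in the untreated wild-type cultures of embryos 1, 2 and 3, then 9.77, 10.09 and 10.09 at 1 h and 9.06, 8.67 and 8.71 at 10 h. The labelled knock-out embryos read 8.05, 7.60 and 7.91 untreated, 9.63, 9.58 and 9.80 at 1 h and 8.93, 8.91 and 8.69 at 10 h. Every 1 h array was above every 10 h array and every 10 h array above every untreated one, in either genotype. The rise at 1 h was 2.09 ± 0.14 in wild type (4.25-fold, adjusted p 4.08e-07) and 1.81 ± 0.14 in the labelled knock-out (3.51-fold, adjusted p 2.7e-06). By embryo it was 2.11, 2.07 and 2.08 in wild type and 1.58, 1.98 and 1.89 in the labelled knock-out.

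Klf10 was still higher than untreated at 10 h, by 0.92 ± 0.14 in wild type (adjusted p 0.000157) and 0.99 ± 0.14 in the labelled knock-out (adjusted p 7.23e-05), which used the same untreated arrays as the 1 h comparison. Between 1 h and 10 h it fell by 1.17 (SE 0.14, adjusted p 1.84e-05) in wild type and by 0.83 (SE 0.14, adjusted p 0.000384) in the labelled knock-out. In that comparison 1 member was called higher and 2 lower in wild type, against 33.3% of all genes (15.3% higher, 18% lower), and 2 higher and 2 lower in the labelled knock-out, against 33.4% (13.7% higher, 19.7% lower). The 1 h and 10 h arrays did not overlap for 5 and 4 members, and for 44.6% and 45.9% of all genes. Knock-out minus wild type, the 1 h rise of Klf10 differed by -0.27 ± 0.20 (95% interval -0.70 to 0.16, adjusted p 1). The Klf10 rise at both times remained called under all 16 alternatives of processing and samples in both genotypes.

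The 3 tested genes whose pattern was most like that of Klf10 were Snai1, Rasl11b and Smad7, with Pearson r of 0.965, 0.951 and 0.947 over the 18 arrays. Those arrays share their embryos in sets of 3, and the likeness is a description. Snai1 encodes a repressor of epithelial genes and Smad7 the inhibitory SMAD.

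Klf13, a Sin3A-binding member known from activated T cells and the heart, rose at 10 h in both genotypes and was between the untreated and 10 h levels at 1 h. Its brightest probe set, 1432543_a_at, read 7.92, 7.87 and 7.93 in untreated wild type, 8.44, 8.29 and 8.32 at 1 h and 9.66, 9.78 and 9.28 at 10 h. In the labelled knock-out the untreated arrays read 7.67, 7.43 and 7.69, those of 1 h 8.15, 8.25 and 8.20, and those of 10 h 9.42, 9.29 and 9.56. The 3 times did not overlap in either genotype. The 10 h rise was 1.67 ± 0.12 in wild type (3.17-fold, adjusted p 6.13e-08) and 1.83 ± 0.12 in the labelled knock-out (3.55-fold, adjusted p 2.07e-08), and from 1 h to 10 h it was 1.22 ± 0.12 in each (adjusted p 1.72e-06 and 1.42e-06). These calls held under all 16 alternatives.

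At 1 h the Klf13 difference was 0.61 ± 0.12 in the labelled knock-out (adjusted p 0.0236) and 0.44 ± 0.12 in wild type (adjusted p 0.158), and the difference between these responses was 0.16 ± 0.16 (95% interval -0.18 to 0.51, adjusted p 1). The 1 h call was lost without labelled knock-out embryo 1, 2 or 3 (adjusted p 0.198, 0.473 and 0.218), without wild-type embryo 1 (0.0641), with the mean of the gene's probe sets (0.0663) and when only the groups compared entered the fit (0.098). A second probe set of Klf13, 1436316_at, rose at 10 h by 1.06 ± 0.12 in wild type and 1.15 ± 0.12 in the labelled knock-out, both called among all probe sets. The third, 1456030_at, had a mean of 4.583 over the arrays, close to the filter level, and differed by 0.04 ± 0.11 and 0.08 ± 0.11.

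The genes most like Klf13 were Foxs1, Fgf21 and Ccn4 with Pearson r of 0.991, 0.984 and 0.984 over the 18 arrays. Fgf21 encodes a metabolic hormone and Ccn4 a secreted matricellular protein.

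Klf9, a Sin3A-binding factor known to respond to glucocorticoid and thyroid hormones, was higher than untreated on all 12 treated arrays. Untreated wild-type arrays read 9.46, 9.59 and 9.56 for probe set 1428288_at, followed by 10.01, 10.15 and 10.11 at 1 h and 9.99, 10.34 and 9.84 at 10 h. The labelled knock-out gave 9.38, 9.58 and 9.41 untreated, 9.97, 9.91 and 10.13 at 1 h and 9.90, 9.65 and 10.01 at 10 h. Treated and untreated arrays did not overlap in either genotype, whereas the 1 h and 10 h arrays did. The 10 h rise was 0.51 ± 0.12 in wild type (1.43-fold, adjusted p 0.00423) and 0.40 ± 0.12 in the labelled knock-out (1.32-fold, adjusted p 0.0191). The latter was not called without labelled knock-out embryo 1 (0.168) or 3 (0.182), and embryo 2 of that genotype had moved by 0.07.

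The 1 h difference of Klf9 was as large, 0.55 ± 0.12 in wild type and 0.54 ± 0.12 in the labelled knock-out, but missed the threshold with adjusted p of 0.0603 and 0.0796. By wild-type embryo it was 0.55, 0.56 and 0.54. With the embryo as a replicate block the adjusted p was 0.0443 in wild type and 0.0518 in the labelled knock-out, and with the embryo as a random block 0.0247 and 0.0308. The wild-type difference also passed with the stricter filter (0.0498), and that of the labelled knock-out without wild-type embryo 2 (0.0466). Of the 7 Klf9 probe sets 5 were called higher at 10 h in wild type and 4 in the labelled knock-out, where 16.1% and 15.9% of all probe sets were called in either direction. Of the 5, probe set 1452723_at was above the filter level on 0 of 18 arrays, with a mean of 3.554. In wild type the 7 ranged from 0.25 to 0.76, and in the labelled knock-out from -0.01 to 0.60. Csrnp1, Inka1 and Tent4a were the genes most like Klf9, with Pearson r of 0.896, 0.889 and 0.884 over the 18 arrays.

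Klf3, a CtBP-binding repressor that restrains adipogenesis and late red cell genes, fell at 10 h in both genotypes and was the member with the smallest spread there. The untreated wild-type arrays read 10.34, 10.05 and 10.26 for probe set 1454666_at, the 1 h arrays 10.44, 10.40 and 10.50 and the 10 h arrays 9.35, 9.25 and 9.31. In the labelled knock-out they were 10.00, 10.09 and 10.08 untreated, 10.03, 10.07 and 10.33 at 1 h, then 9.11, 9.08 and 9.11 at 10 h. All 6 arrays of 10 h lay below all 12 others. The difference from untreated was -0.91 ± 0.091 in wild type (1.88-fold lower, adjusted p 2.19e-06) and -0.95 ± 0.091 in the labelled knock-out (1.94-fold lower, adjusted p 1.34e-06). From 1 h to 10 h it was -1.14 ± 0.091 and -1.04 ± 0.091 (adjusted p 3.39e-07 and 6.28e-07).

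The 1 h value of Klf3 was 0.23 ± 0.091 in wild type (adjusted p 0.594) and 0.09 ± 0.091 in the labelled knock-out (adjusted p 1). Its wild-type sign turned when all probe sets were averaged, at -0.04. The 7 probe sets of Klf3 did not move alike at 10 h. A second one, 1429360_at, fell by 0.76 (SE 0.19) in wild type and by 0.80 (SE 0.19) in the labelled knock-out, and 1442920_at fell by 0.50 (SE 0.12) in wild type and was -0.21 ± 0.12 in the labelled knock-out, not called, with a mean of 4.553 near the filter level. Probe set 1421604_a_at was at -0.48 and -0.46, not called, and the other 3 lay between -0.13 and 0.09, among them 2 with means of 7.635 and 7.192, well above the filter level. So 3 of 7 were called lower in wild type and 2 of 7 in the labelled knock-out. Of all probe sets 16.1% and 15.9% were called at 10 h in either direction. Rcor3, Ncoa2 and Rev3l followed the brightest Klf3 probe set most closely, with Pearson r of 0.981, 0.98 and 0.98 over the 18 arrays.

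**Figure D2:**
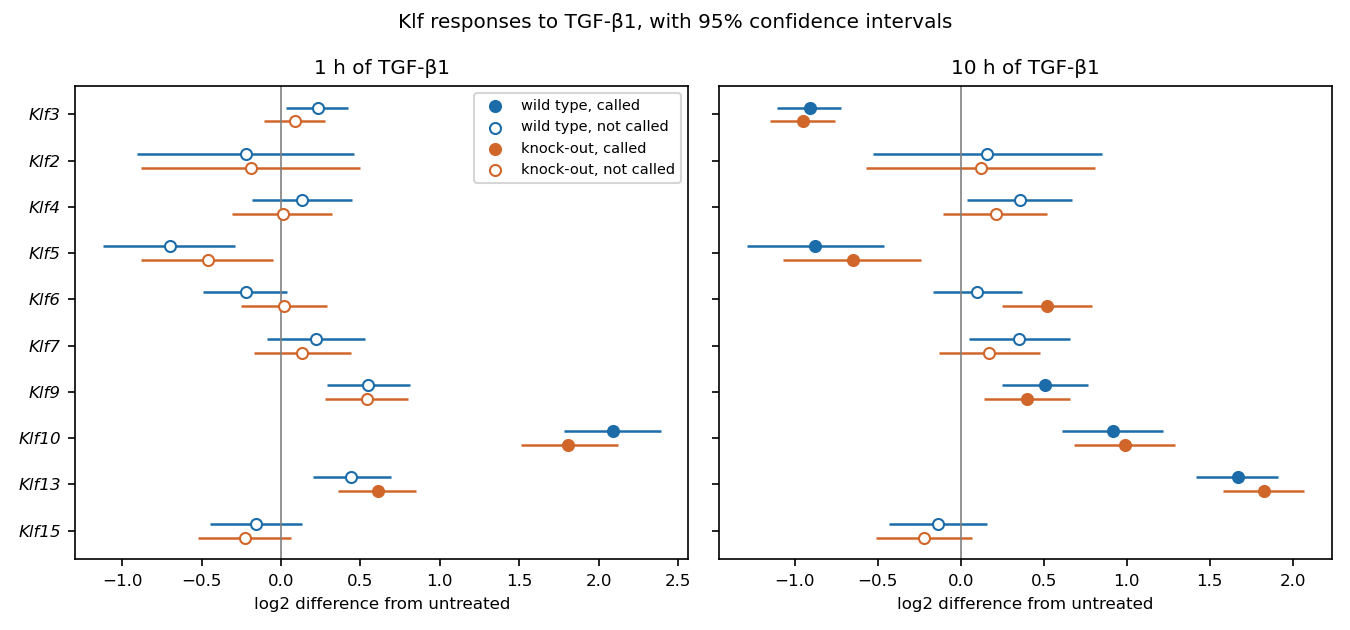
Log2 difference from untreated at 1 h and 10 h of TGF-β1 for the 10 members, with 95% confidence intervals from limma (3 arrays against 3), filled where the adjusted p was under 0.05; both times share the untreated arrays of their genotype. At 1 h the filled points are Klf10 in both genotypes and Klf13 in the labelled knock-out; at 10 h they also include Klf3, Klf5 and Klf9 in both and Klf6 in the labelled knock-out.

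Klf5, a growth-promoting activator of smooth muscle and epithelial genes, fell at 10 h. Probe set 1451021_a_at read 7.89, 8.31 and 7.55 in untreated wild type, 7.40, 7.14 and 7.10 at 1 h and 6.56, 7.40 and 7.17 at 10 h. The labelled knock-out read 7.58, 7.66 and 7.68 untreated, 7.01, 7.24 and 7.28 at 1 h and 7.0, 6.84 and 7.12 at 10 h. Every treated array lay below every untreated array of its genotype. At 10 h the difference was -0.88 ± 0.20 in wild type (1.83-fold lower, adjusted p 0.00268) and -0.65 ± 0.20 in the labelled knock-out (1.57-fold lower, adjusted p 0.0163). The 1 h values, -0.70 ± 0.20 and -0.46 ± 0.20, were not called (adjusted p 0.221 and 1).

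The wild-type 10 h call of Klf5 held under all 16 alternatives. That of the labelled knock-out was lost without its embryo 1, 2 or 3 (adjusted p 0.0729, 0.126 and 0.0712) and with the mean of the probe sets, which gave -0.19 (adjusted p 0.105). The other 2 Klf5 probe sets were above the filter level on 2 and 0 of 18 arrays. Itgb8, an integrin chain that takes part in TGF-β activation, was most like Klf5 with a Pearson r of 0.892 over the 18 arrays, before 9930012K11Rik with 0.833 and Nt5dc2 with 0.826.

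Klf6, a factor known to be induced by tissue injury, rose at 10 h in the labelled knock-out. Its brightest probe set, 1433508_at, read 8.93, 8.93 and 8.49 there untreated, 8.72, 8.89 and 8.80 at 1 h and 9.22, 9.44 and 9.25 at 10 h. In wild type the values were 8.92, 8.95 and 8.82 untreated, 8.90, 8.44 and 8.67 at 1 h, then 8.99, 8.94 and 9.07 at 10 h. All 3 arrays of 10 h in the labelled knock-out stood above the other 15. The 10 h difference was 0.52 ± 0.13 in the labelled knock-out (1.44-fold, adjusted p 0.00454) and 0.10 ± 0.13 in wild type (adjusted p 0.557).

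The difference between these Klf6 responses was 0.42 ± 0.18 (95% interval 0.04 to 0.80), with an unadjusted p of 0.0333 and an adjusted p of 0.999, so a genotype difference in the response was not called. The untreated array of labelled knock-out embryo 3 was the lowest of its group, and without that embryo the rise was 0.40 and not called (adjusted p 0.053). From 1 h to 10 h Klf6 rose by 0.50 ± 0.13 in the labelled knock-out (adjusted p 0.006), while wild type had 0.33 ± 0.13 (adjusted p 0.0586, and 0.0407 with the embryo as a replicate block). All 5 Klf6 probe sets were above 0 at 10 h, from 0.10 to 0.26 in wild type and from 0.16 to 1.05 in the labelled knock-out, but among all probe sets only the brightest was called, in the labelled knock-out. The 1 h values were -0.22 ± 0.13 and 0.02 ± 0.13, and neither was called. Golga3, Thbs1 and Ywhah were most like Klf6, with Pearson r of 0.866, 0.86 and 0.856, and Thbs1 encodes a matrix protein that activates latent TGF-β.

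Klf4, one of the reprogramming factors and a regulator of growth arrest, was not called at either time. Its brightest probe set, 1417394_at, read 9.05, 9.11 and 9.51 in untreated wild type, 9.35, 9.36 and 9.36 at 1 h and 9.54, 9.73 and 9.47 at 10 h. The labelled knock-out had 8.75, 9.01 and 9.11 untreated, 8.90, 8.87 and 9.11 at 1 h and 8.82, 9.31 and 9.36 at 10 h. Wild-type embryo 3 stood out by its high untreated value. The 10 h difference was 0.36 ± 0.15 in wild type (adjusted p 0.0769) and 0.21 ± 0.15 in the labelled knock-out (adjusted p 0.322), and at 1 h it was 0.13 ± 0.15 and 0.01 ± 0.15. The second probe set gave 0.28 and 0.17 at 10 h. Ppp1r2-ps9, Gfi1b and Aldh1l2 followed Klf4 most closely, with Pearson r of 0.846, 0.818 and 0.812 over the 18 arrays.

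Klf7, an activator known from neurite outgrowth and as an inhibitor of fat cell differentiation, had a 10 h difference of 0.35 ± 0.14 in wild type (adjusted p 0.0706) and 0.17 ± 0.14 in the labelled knock-out (adjusted p 0.392). Its brightest probe set was 1419354_at, with wild-type values of 8.89, 8.37 and 8.64 untreated, 9.09, 8.68 and 8.80 at 1 h and 9.10, 9.18 and 8.68 at 10 h. Its labelled knock-out values ran from 8.71 to 8.78 untreated, from 8.86 to 8.93 at 1 h and from 8.79 to 9.06 at 10 h. The 3 other probe sets were between -0.24 and 0.12 at 10 h in wild type and between 0.21 and 0.41 in the labelled knock-out, with standard errors of 0.23 to 0.32, and none was called. Msrb1, Rnf103 and Cyth1 were most like Klf7, with Pearson r of 0.881, 0.856 and 0.778.

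With the embryo as a replicate block both wild-type 10 h differences passed, Klf4 with an adjusted p of 0.036 and Klf7 with 0.0349. They also passed without wild-type embryo 3 (0.55, adjusted p 0.0365, and 0.51, adjusted p 0.0423), and that of Klf4 without labelled knock-out embryo 1 (0.0378). The block assumes that arrays of the same number share an embryo, as labelled. Over all tested genes, however, the deviations of the 10 h wild-type arrays 2 and 3 correlated with those of the untreated arrays of the same number at -0.0638 and -0.204. Embryo 1 gave 0.487, and the labelled knock-out embryos 0.388, 0.344 and 0.282.

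Klf2, known from quiescent endothelium and T cells, varied most within groups of the 10 members. Its only probe set, 1448890_at, read 7.95, 7.17 and 7.77 in the untreated wild-type arrays 1, 2 and 3 and 7.96, 6.59 and 7.68 at 1 h, and then 8.02, 8.09 and 7.26 at 10 h. The array numbered 2 was the lowest untreated and at 1 h and the highest at 10 h. Since the 10 h wild-type arrays 2 and 3 correlated with the untreated arrays of their number at only -0.0638 and -0.204 over all tested genes, a move within these numbers cannot be told apart from a difference in numbering. The labelled knock-out kept its order of embryos, with 7.82, 7.09 and 7.46 untreated, 7.54, 6.89 and 7.39 at 1 h and 7.75, 7.35 and 7.64 at 10 h. For the brightest Klf7 probe set wild-type array 2 was also lowest untreated and highest at 10 h. The other Klf7 probe sets differed, 1419356_at reading 8.31, 8.37 and 8.09 at 10 h, 1449439_at 8.92, 8.84 and 8.46, and 1419355_at 7.84, 6.72 and 7.65. Over the 18 arrays Klf2 and Klf7 correlated at 0.62, a description of arrays that share embryos. The mean of the 11 macrophage markers went for number 2 of wild type from 8.77 untreated and 8.75 at 1 h to 7.93 at 10 h, while numbers 1 and 3 went from 10.25 to 9.92 and from 8.65 to 8.62. The part of the macrophage markers in these values was not tested.

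**Figure D3:**
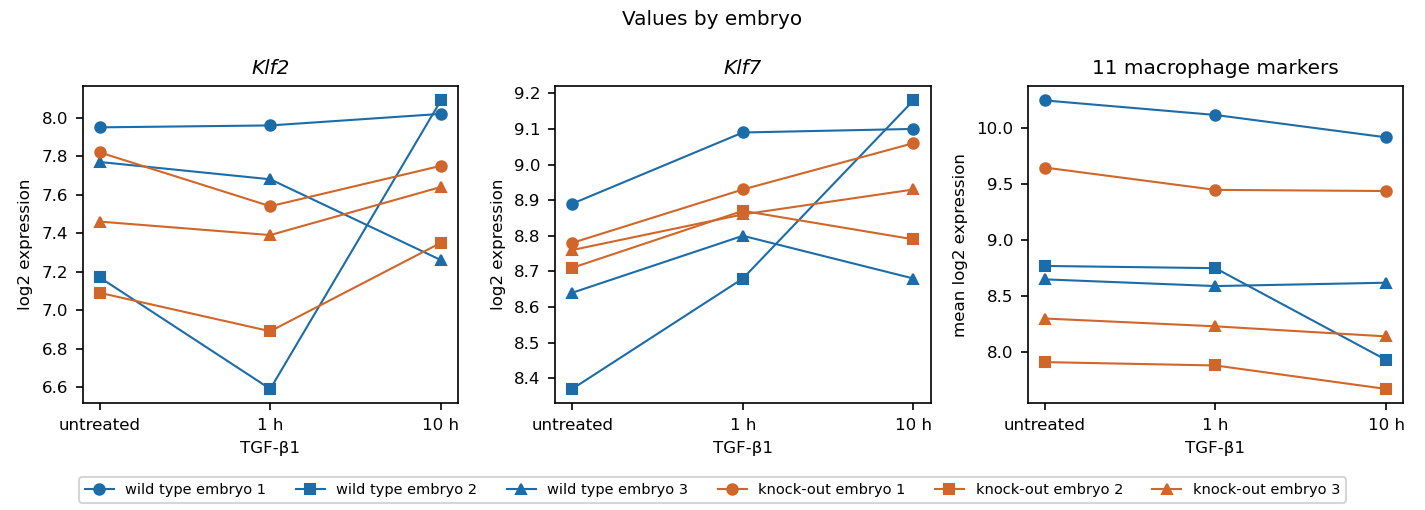
Log2 expression of Klf2 and Klf7 and the mean log2 expression of 11 macrophage markers in the 3 cultures of each labelled embryo, 1 line per array number and genotype and 1 point per array, with a separate log2 axis for each panel. Among the wild-type points those numbered 2 are the lowest untreated and the highest at 10 h for Klf2 and for the brightest Klf7 probe set. The macrophage mean of wild-type number 2 is 8.75 at 1 h and 7.93 at 10 h. Lines follow the labelled numbers, and over all tested genes the 10 h wild-type arrays 2 and 3 correlated with the untreated arrays of their number at -0.0638 and -0.204.

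Klf2 had no called difference, and its confidence intervals were the widest of the 10 members in these comparisons. The wild-type values were -0.22 ± 0.32 at 1 h and 0.16 ± 0.32 at 10 h (95% interval -0.53 to 0.85), and those of the labelled knock-out -0.19 ± 0.32 and 0.12 ± 0.32 (95% interval -0.57 to 0.81). Without wild-type embryo 2 the 10 h value in wild type was -0.22. At 10 h a change of the size seen for Klf9 in these cells would lie within those intervals. At 1 h the Klf2 intervals were -0.91 to 0.46 in wild type and -0.88 to 0.5 in the labelled knock-out. Their upper ends were below the 1 h values of Klf9, 0.55 and 0.54. Zdhhc14, Camk1 and Dpep1 were most like Klf2, with Pearson r of 0.872, 0.841 and 0.84 over the 18 arrays.

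Klf15, a glucocorticoid-induced regulator of amino acid and lipid metabolism, was at the edge of detection. Its only probe set, 1448181_at, ranged from 4.048 to 4.686 and was above the filter level on 15 of 18 arrays. Its differences were -0.16 ± 0.14 and -0.14 ± 0.14 in wild type at 1 h and 10 h and -0.23 ± 0.14 and -0.22 ± 0.14 in the labelled knock-out, none of them called. At such a signal a change in level may not be seen on the array. Its closest genes, Snhg7, 2700097O09Rik and Alkbh3, reached only 0.797, 0.751 and 0.719.

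**Figure D4:**
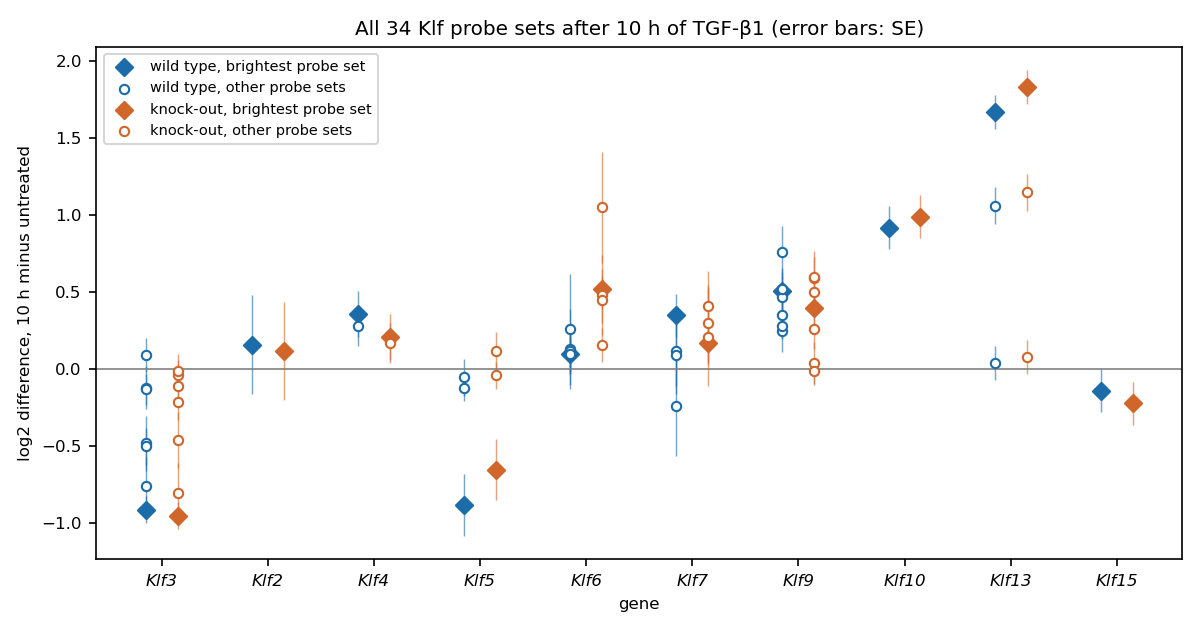
Log2 difference between 10 h of TGF-β1 and untreated for each of the 34 Krüppel-like factor probe sets in wild type and the labelled knock-out, diamonds for the brightest probe set of a gene, circles for the others and bars for the standard error (3 arrays against 3). The probe sets of Klf9 lie between -0.01 and 0.76, whereas those of Klf3 range from -0.95 to 0.09 and those of Klf13 from 0.04 to 1.83.

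The order of the 6 group means differed from member to member. For Klf10 it ran from 9.982 in wild type and 9.67 in the labelled knock-out at 1 h, whose arrays overlapped, through 8.844 in the labelled knock-out and 8.814 in wild type at 10 h to 7.896 and 7.857 in untreated wild type and labelled knock-out, and the steps between times were free of overlap. For Klf13 wild type preceded the labelled knock-out at each time, with 9.572 and 9.424 at 10 h, which overlapped, then 8.351 and 8.202 at 1 h and 7.906 and 7.595 untreated, each clear of its neighbour. For Klf3 the 10 h groups, 9.304 in wild type and 9.102 in the labelled knock-out, were clear of the others and of each other, and wild type at 1 h, 10.44, stood clear above the rest. The lone clear step of Klf9 lay between the treated groups, 9.855 to 10.09, and the untreated ones, 9.539 and 9.457. Klf5 likewise had its one clear step below the untreated groups, 7.916 and 7.64, and Klf6 and Klf4 had theirs below the highest group, 9.304 in the labelled knock-out and 9.581 in wild type, both at 10 h. For Klf2, Klf7 and Klf15 no 2 neighbouring groups were free of overlap.

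Between the genotypes no member was called in untreated cells, at 1 h or at 10 h, where 0% of all 13679 genes were called by limma. At an unadjusted p under 0.05 there were 1, 3 and 3 members and 460, 846 and 721 genes. The groups did not overlap for 1, 3 and 3 of the 10 members, against 7.93%, 14.3% and 7.6% of all genes. Klf13 had a difference in untreated cells of -0.31 ± 0.12 (95% interval -0.56 to -0.07, unadjusted p 0.0161, adjusted p 1), and had -0.15 ± 0.12 at 1 h and again at 10 h. Its probe set 1436316_at gave -0.14 ± 0.12 untreated, 0.13 ± 0.12 at 1 h, with the opposite sign, and -0.04 ± 0.12 at 10 h. Klf3 had -0.16 ± 0.091, -0.30 ± 0.091 and -0.20 ± 0.091 untreated, at 1 h and at 10 h, the unadjusted p at 1 h being 0.00448 and the adjusted p 0.605. The 1 h sign of Klf3 was lost with the mean of its probe sets, at 0.01.

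Klf4 had the most negative difference of the 10 members between labelled knock-out and wild type at 1 h and 10 h, with -0.27 ± 0.15, -0.40 ± 0.15 and -0.42 ± 0.15 in the 3 conditions (adjusted p 1, 0.698 and 0.912). Its second probe set, 1417395_at, gave -0.05, -0.20 and -0.15, each with a standard error of 0.13. Leaving out an embryo moved the 10 h value of the brightest from -0.52 to -0.25, the latter without labelled knock-out embryo 1. Averaged over the 3 cultures of an embryo, the wild-type embryos had 9.31, 9.40 and 9.45 and the labelled knock-out embryos 8.82, 9.06 and 9.19. The difference of these Klf4 means was -0.36 ± 0.10, with an unadjusted p of 0.00882 and an adjusted p of 0.825, and limma called 0 of all genes in that comparison, with 659 at an unadjusted p under 0.05. In the same comparison Klf3 had -0.22 ± 0.07 (unadjusted p 0.0151, adjusted p 0.937) and Klf13 had -0.20 ± 0.074 (unadjusted p 0.0289, adjusted p 0.976). This comparison was added after the data were seen. Its embryo means follow the labelled numbers. The 10 h wild-type arrays 2 and 3 correlated with the untreated arrays of their number at only -0.0638 and -0.204 over all tested genes. Another numbering within wild type would leave the differences between the genotypes as they are but change their standard errors and p. The 11 macrophage markers had medians of -0.57, -0.59 and -0.44 between the genotypes in the 3 conditions, none of them called. The part of that difference in the Klf4 values was not tested. No difference in response between the genotypes was called either. The fit with limma called 0% of genes in the interactions at 1 h and at 10 h, with 233 and 305 genes and 0 and 1 member (Klf6) at an unadjusted p under 0.05. The 95% intervals of the 10 members reached from -0.94 to 1.01 at 1 h and from -1.01 to 0.94 at 10 h, and all these ends were those of Klf2. The widest interval of the other members was that of Klf5, with -0.35 to 0.83 at 1 h and -0.36 to 0.81 at 10 h.

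Of the remaining Klf genes, 6 of 7 listed were on the array and 5 were tested, and none was called at 1 h. At 10 h Klf11, the close relative of Klf10 and likewise a Sin3A-binding factor, fell, at -0.75 ± 0.16 in wild type (adjusted p 0.00178) and -0.73 ± 0.16 in the labelled knock-out (adjusted p 0.00208). Its 1 h values were 0.22 and 0.30, not called. Klf12, which binds CtBP as Klf3 does, fell in wild type, at -0.54 ± 0.16 (adjusted p 0.015), and had -0.40 ± 0.16 (adjusted p 0.0619) in the labelled knock-out, and Klf16 rose by 0.42 ± 0.12 in the labelled knock-out (adjusted p 0.00962) with 0.07 in wild type. The 5 genes had a median of 0.05 in wild type and -0.15 in the labelled knock-out at 10 h, beside 0.01 and -0.03 over all genes. Of the related Sp genes 6 of 9 were tested, with 1 called, Sp6 in wild type at 10 h by 0.33 ± 0.11 (adjusted p 0.0266). The 10 h and untreated wild-type arrays of Sp6 overlapped. Beside these Klf and Sp genes, 33.7% of all genes were called at 10 h in wild type and 34.7% in the labelled knock-out.

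Among 13 corepressors and coactivators of the family, all tested, none was called at 1 h, and 1 was higher and 4 lower at 10 h in each genotype, with a median of -0.18 in both. Of all genes 14.9% were called higher and 18.8% lower at 10 h in wild type, and 13.9% and 20.7% in the labelled knock-out. Sin3a, the corepressor bound by Klf9, Klf10 and Klf13, fell, at -0.52 ± 0.11 in wild type and -0.46 ± 0.11 in the labelled knock-out. So did the acetyltransferase gene Kat2b, at -0.75 ± 0.096 and -0.93 ± 0.096, and Crebbp, at -0.60 ± 0.11 and -0.61 ± 0.11. The fourth was Sap30, a subunit of the Sin3 complex, at -0.50 ± 0.16 and -0.66 ± 0.16. Wdr5, a subunit of histone methyltransferase complexes, rose by 0.37 ± 0.11 and 0.47 ± 0.11. Ctbp1 and Ctbp2, the partners of Klf3, were at 0.02 ± 0.096 and 0.17 ± 0.12 in wild type and -0.08 ± 0.096 and 0.13 ± 0.12 in the labelled knock-out, not called.

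The ubiquitin ligases and related enzymes that act on Krüppel-like proteins were 12 tested genes, with none called at 1 h and 5 higher and none lower at 10 h in each genotype, where 14.9% and 13.9% of all genes were called higher. Their median was 0.07 in wild type and 0.17 in the labelled knock-out. Fbxo32, which encodes atrogin-1, rose by 2.54 ± 0.16 and 2.51 ± 0.16, Smurf1 by 1.27 ± 0.11 and 1.33 ± 0.11, Smurf2 by 0.83 ± 0.11 and 0.85 ± 0.11, and Itch, a ligase reported for Klf10, by 0.40 ± 0.09 and 0.46 ± 0.09. The fifth, Fbxw7, rose by 0.53 ± 0.14 and 0.56 ± 0.14. These are transcript levels, and no protein was measured here.

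Of 15 tested upstream kinases and factors 4 were higher and 5 lower at 10 h in wild type (median -0.06) and 4 higher and 3 lower in the labelled knock-out (median -0.01), with none called at 1 h. The shares called at 10 h among all genes were 33.7% in wild type and 34.7% in the labelled knock-out. Smad3, a carrier of the TGF-β signal, fell, at -0.88 ± 0.095 and -1.06 ± 0.095. Srf rose by 0.67 ± 0.11 and 0.88 ± 0.11 and Foxo1 by 0.93 ± 0.17 and 1.11 ± 0.17. Nr3c1, the glucocorticoid receptor gene, fell in wild type, at -0.65 ± 0.18, and was at -0.20 ± 0.18 in the labelled knock-out, not called. Elk4 and Mef2a were the other higher genes, and Foxo3 and Thra were lower, in both genotypes, with Mef2c lower in wild type.

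Klf9 and Klf15 are known glucocorticoid targets, and 10 other glucocorticoid-responsive genes gave 2 higher and 2 lower at 10 h in wild type (median -0.11) and 3 higher and 2 lower in the labelled knock-out (median -0.19), beside 33.7% and 34.7% of all genes called in either direction. Fkbp5 rose by 1.29 ± 0.13 and 1.5 ± 0.13 and Sgk1 by 0.67 ± 0.18 and 0.68 ± 0.18, while Mt1 fell, at -1.43 ± 0.44 and -1.51 ± 0.44, and Tsc22d3, at -0.47 ± 0.16 and -0.51 ± 0.16. The third higher gene of the labelled knock-out was Errfi1, at 0.90 ± 0.21. At 1 h Sgk1 was the gene of this list that was called, in wild type at 1.05 ± 0.18, with 0.79 ± 0.18 in the labelled knock-out (adjusted p 0.0981).

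Klf9 and Klf10 are also under the circadian clock in several tissues, and the 15 clock genes had 5 higher and 6 lower at 10 h in wild type (median -0.22) and 4 higher and 6 lower in the labelled knock-out (median -0.35). Among all genes 33.7% and 34.7% were called in either direction. Dbp fell, at -4.25 ± 0.10 and -4.61 ± 0.10, and Nr1d2, at -1.48 ± 0.11 and -1.59 ± 0.11, while Arntl rose by 2.16 ± 0.12 and 2.18 ± 0.12 and Cry1 by 1.51 ± 0.13 and 1.67 ± 0.13. At 1 h Bhlhe40 was called higher in both genotypes, at 2.02 ± 0.29 and 1.90 ± 0.29, and Per2 in wild type at 1.03 ± 0.21, with 0.83 ± 0.21 in the labelled knock-out (adjusted p 0.156). These 10 h values, too, are those of TGF-β1 and time together.

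Of 20 tested genes reported elsewhere as targets of Krüppel-like factors 2 were called higher at 1 h in wild type and 3 in the labelled knock-out, with none lower, where 0.504% and 0.417% of all genes were called higher. At 10 h 9 were higher and 3 lower in wild type (median 0.30) and 8 higher and 2 lower in the labelled knock-out (median 0.24). Of all genes 14.9% were higher and 18.8% lower in wild type then, and 13.9% and 20.7% in the labelled knock-out. Smad7 rose at 1 h by 1.88 ± 0.10 and 1.71 ± 0.10 and was at 1.28 ± 0.10 and 1.11 ± 0.10 at 10 h. Ccn2 rose at 1 h as well, by 1.05 ± 0.13 and 0.84 ± 0.13, and Edn1, which encodes endothelin, in the labelled knock-out by 0.86 ± 0.16, with 0.71 ± 0.16 in wild type (adjusted p 0.0811). At 10 h Ccn2, a matricellular gene, was higher by 1.53 ± 0.13 and 1.44 ± 0.13, Tgfb1 by 2.09 ± 0.19 and 2.03 ± 0.19, and Pdgfa by 1.57 ± 0.16 and 1.65 ± 0.16. The lower genes were Thbd, encoding thrombomodulin, and the adipogenic factor gene Pparg in both genotypes, and Ccnd1 in wild type. Many of these genes are direct targets of SMAD proteins as well, and their counts are no measure of the activity of any Krüppel-like factor.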

How the data were processed

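Expression was measured on 1 Affymetrix array per culture. The authors deposited log2 values that they had summarized with RMA, per the submitters' processing notes, in a version that no source used here states. RMA corrects background, makes the arrays' distributions equal and combines a set's probes. The log2 scale was read from the range of 2.491 to 14.47, and the values were used as deposited.

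Of 45101 probe sets 34958 had 1 gene symbol in the annotation table, 932 had several and 9211 none there. Of the first, 34754 matched the RefSeq gene table (GRCm38.p6). A gene was tested when its brightest single-symbol probe set exceeded its array's percentile 40 on at least 3 arrays, and 4515 genes were not tested. Group means were fitted over 18 arrays with limma 3.58.1 in R 4.3.3 (empirical Bayes moderation, 12 residual degrees of freedom, Benjamini-Hochberg adjustment, threshold 0.05). The number of arrays limits the precision: the median gene's 95% interval reached 0.268 to either side. The fit was tested on simulated data.

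Array numbers name embryos in the labels and so pair the cultures of a genotype. Deviations from the group means correlated between untreated and 1 h arrays of the same number at 0.763, 0.604 and 0.642 in wild type and at 0.592, 0.684 and 0.656 in the labelled knock-out. Untreated and 10 h arrays had 0.487, -0.0638 and -0.204 in wild type and 0.388, 0.344 and 0.282 in the labelled knock-out. Arrays of the same number but different genotype, which are different embryos, correlated at 0.346, 0.541 and 0.0729 untreated. They had 0.472, 0.487 and 0.104 at 1 h and 0.135, -0.198 and -0.0238 at 10 h. So in untreated and 1 h arrays those numbered 1 and 2 were alike across the genotypes as well, and those numbered 3 hardly so. The source of the likeness within a number was not tested.

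The members and gene lists were chosen with earlier results of these data known. Named are the members, the 3 tested genes that correlate best with each and up to 4 genes per list with the smallest adjusted p in wild type. Other genes of the lists (Ctbp1, Ctbp2, Sap30, Fbxw7, Elk4, Mef2a, Mef2c, Foxo3, Thra, Errfi1, Bhlhe40, Per2, Edn1, Thbd, Pparg and Ccnd1) were chosen after their values were seen. Alternatives were another normalization, centring, filter and use of probe sets, another variance model, the compared groups alone, the embryo as a fixed or random block, and each embryo left out. For the comparisons of genotypes within a condition the fixed block was the array number, which joins different embryos.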

Additional observations from a re-analysis of the deposited data

How the results depend on the processing

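The alternatives were counted for the member differences chosen for reporting, not for every member in every comparison. Many of these differences were not called in the main fit. Of 1036 values under an alternative 998 kept their direction and their side of the threshold, 17 passed it newly, 13 lost it and 8 changed sign. The sign changes concerned values that were not called. With the mean of a gene's probe sets Klf3 was at -0.04 in wild type at 1 h and at 0.01 between the genotypes at 1 h, and Klf4 was at -0.02 in the labelled knock-out at 1 h. Quantile normalization gave 0 for the last. With an embryo left out, Klf4 and Klf6 ranged from -0.07 to 0.08 and from -0.13 to 0.13 in the labelled knock-out at 1 h, and Klf15 and Klf2 from -0.28 to 0.01 and from -0.22 to 0.49 in wild type at 10 h. The cause was not tested.

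With the embryo as a replicate block, as a random block or under the stricter filter, 2 members were called in wild type at 1 h, Klf9 joining Klf10. Both the replicate block and the random block also added Klf4 and Klf7 in wild type at 10 h and Klf6 in wild type from 1 h to 10 h. The random block added Klf9 in the labelled knock-out at 1 h as well, at 0.54 (adjusted p 0.0308), and beyond these neither block changed a call of a member. Between the genotypes within a condition the replicate block was the array number, not the embryo. In the labelled knock-out at 1 h, 1 member was called with the mean of the probe sets and with only the compared groups in the fit. Leaving out an embryo gave 1 to 3 called members there and 3 to 6 at 10 h, the 3 without labelled knock-out embryo 3. It gave 1 in wild type at 1 h, 5 to 7 at 10 h, and 0 in each comparison of genotypes. With 3 arrays a group, differences of less than 0.268 were within the 95% interval of the median gene, and Klf15 was too close to background for a change to be measured well.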
